A study of Mus musculus with 6 samples.

Results

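The miR-379 to miR-410 cluster is a run of miRNA hairpins on mouse chromosome 12, in the imprinted domain between Dlk1 and Dio3. Its members were chosen by position in the deposited table, as every mature name with a precursor in the stretch from mir-379 to just beyond mir-410, both arms of a hairpin included, whose counts summed to more than 10 over the 6 libraries. The stretch holds 51 of the 535 mature names, and 49 of them are among the 525 that passed this filter. The difference between the groups was known when the cluster was picked, so the values that compare nephron progenitors with whole kidney are given as a description of these libraries.

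Small RNA was sequenced from nephrogenic mesenchymal cells enriched for nephron progenitors (MNP1, MNP2 and MNP6) and from whole kidney (MWK1, MWK2 and MWK6), in wild-type CD1 mouse embryos at embryonic day 15.5 with no treatment. Each library came from material pooled over 1 litter, and the study collected both groups from 3 litters. Which libraries share a litter cannot be told from the columns, and the tests treat the libraries as independent. The progenitors were what remained after beads carrying antibodies to CD140a, CD105, Epcam and Ter119 had removed other cells, and whole kidney was what the limited digestion left behind. The groups also differ in the RNA kit, so kit and cell isolation cannot be told apart from cell type.

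Genes of this domain are imprinted. The noncoding transcripts Meg3, Rian and Mirg and the miRNAs that lie among them are made from the maternal chromosome, while Dlk1, Rtl1 and Dio3 are made from the paternal one. The miRNAs are thought to be cut from long shared transcripts, are abundant in placenta, embryo and adult brain, and mice that lack the cluster show defects in metabolic adaptation at birth and in anxiety-related behaviour.

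In the deposited coordinates (mm10), the hairpins ran from mir-379, which starts at 109709060, to mir-3072, which ends at 109747960, a span of 38.9 kb. From mir-379 to the end of mir-410 at 109743795 the span was 34.7 kb, and mir-3072 was the single hairpin beyond it. The 52 rows of the stretch name 35 precursors, of which 34 lie on the plus strand. The exception is mir-299b, which lies on the minus strand opposite mir-299a. By the GENCODE annotation, 12 of the 34 plus-strand hairpins, from mir-382 onward, lie within Mirg (109729764 to 109749460, same strand). Of these, 4 lie wholly within an exon, 5 cross an exon edge and 3 lie in introns. The other 22, from mir-379 to mir-539, lie outside annotated host genes.

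Depth was 393929, 436093 and 333835 tested counts in MNP1, MNP2 and MNP6, beside 349220, 360211 and 355835 in MWK1, MWK2 and MWK6. Of these, the members took 8207, 16638 and 16650 counts in the progenitor libraries and 3408, 3613 and 4155 in whole kidney. Their share was 2.08% in MNP1 (95% Wilson interval 2.04 to 2.13), 3.82% in MNP2 (3.76 to 3.87) and 4.99% in MNP6 (4.91 to 5.06). It was 0.976% in MWK1 (0.944 to 1.01), 1.00% in MWK2 (0.971 to 1.04) and 1.17% in MWK6 (1.13 to 1.20). Every progenitor library lay above every whole kidney library, and MNP1 lay well under the other progenitor libraries. The intervals treat the reads of a library as independent and cover counting error only. The reads carry no molecular identifiers, so copies of a molecule cannot be told apart and the intervals can be too narrow. Group means were 3.63% ± 1.46 and 1.05% ± 0.104 (SD, n = 3 each), a ratio of 3.46. MNP1 alone was at 1.99 times the whole kidney mean, and the mean of MNP2 and MNP6 was at 4.20 times. In tissue extracts, a difference in the number of cells that make these miRNAs cannot be told apart from a difference in the amount per cell.

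**Figure D1:**
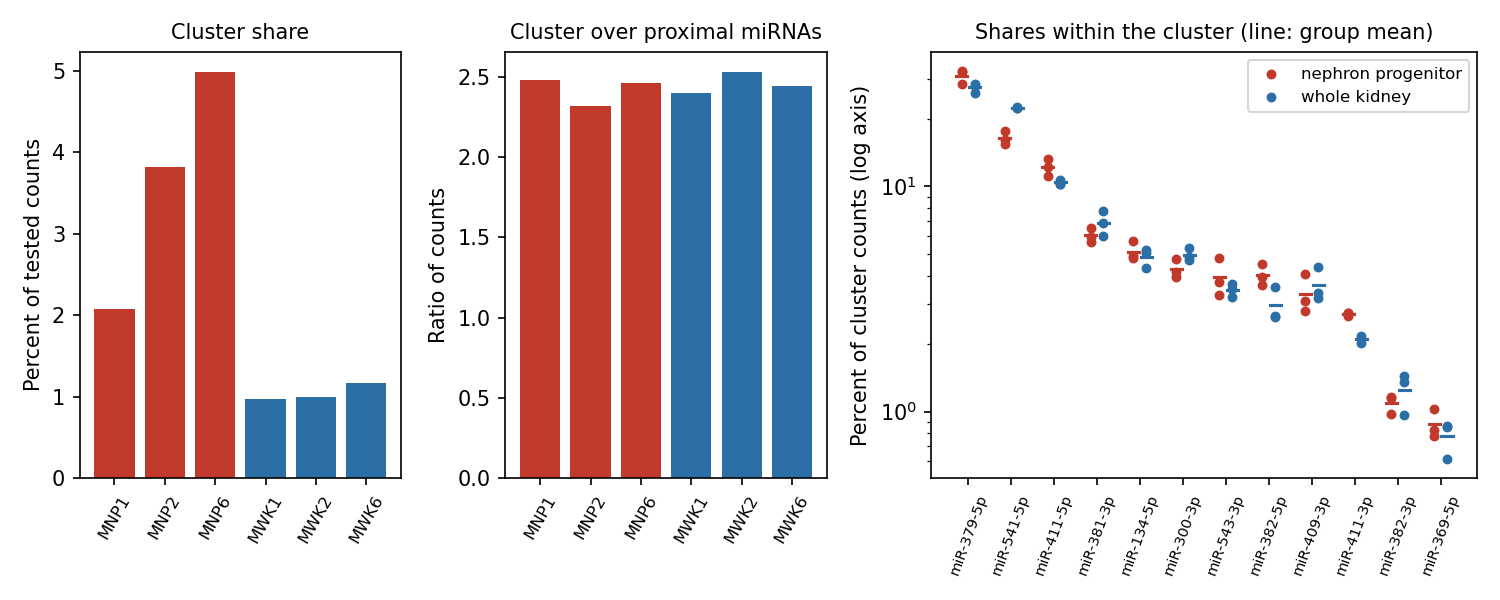
Left, counts of the cluster as a percent of tested counts in each library, from 0.976% in MWK1 to 4.99% in MNP6. Middle, cluster counts divided by counts of the miRNAs nearer to Dlk1, between 2.32 and 2.53 in all 6 libraries; right, each of the 12 most abundant members as a percent of cluster counts on a log axis, with a point per library and a line at the group mean.

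The miRNAs of the same domain that lie nearer to Dlk1, from mir-770 to mir-370, give a measure that does not depend on how libraries are scaled. Of 22 such names 21 passed the filter, among them miR-127-3p, miR-433-3p and miR-434-5p, which lie opposite Rtl1, and miR-370-3p, which lies in an intron of Rian. They took 0.839%, 1.65% and 2.03% of counts in MNP1, MNP2 and MNP6, beside 0.406%, 0.397% and 0.479% in MWK1, MWK2 and MWK6. Their share also was lowest in MNP1 among the progenitor libraries, at 0.457 times the mean of the others, beside 0.473 times for the cluster. The ratio of cluster counts to these counts was 2.48, 2.32 and 2.46 in the progenitor libraries and 2.40, 2.53 and 2.44 in whole kidney. The groups overlapped, at 2.42 ± 0.0893 and 2.46 ± 0.0656 (SD, n = 3 each; exact two-sided permutation test, p = 0.7). The difference in this ratio was smaller than the spread between replicates, while the share of the cluster differed by 3.46 times.

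Of the 49 members, 35 were higher in nephron progenitors past an adjusted p of 0.05 (edgeR's quasi-likelihood test, Benjamini-Hochberg adjustment over all 525), and none was lower past it. Over all miRNAs tested the percent higher past this threshold was 19.4 and the percent lower was 17.1. For 32 of the 49 members all progenitor libraries lay above all whole kidney libraries in CPM (counts scaled to a common library size by TMM), as they did for 23.4% of all miRNAs tested. The 3 past the threshold with overlapping groups were miR-299a-3p, miR-299b-3p and miR-412-5p. The call of miR-412-5p was lost in 3 of 6 fits that left out a library and with limma-voom. The median log2 fold change was 1.73 over the members and -0.01 over all miRNAs tested. For 9 members every whole kidney library held 3 counts or fewer, taken as the floor, and with these computed against the floor the median was 1.42. Since the contrast was known when the members were picked, nothing is read from these counts.

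**Figure D2:**
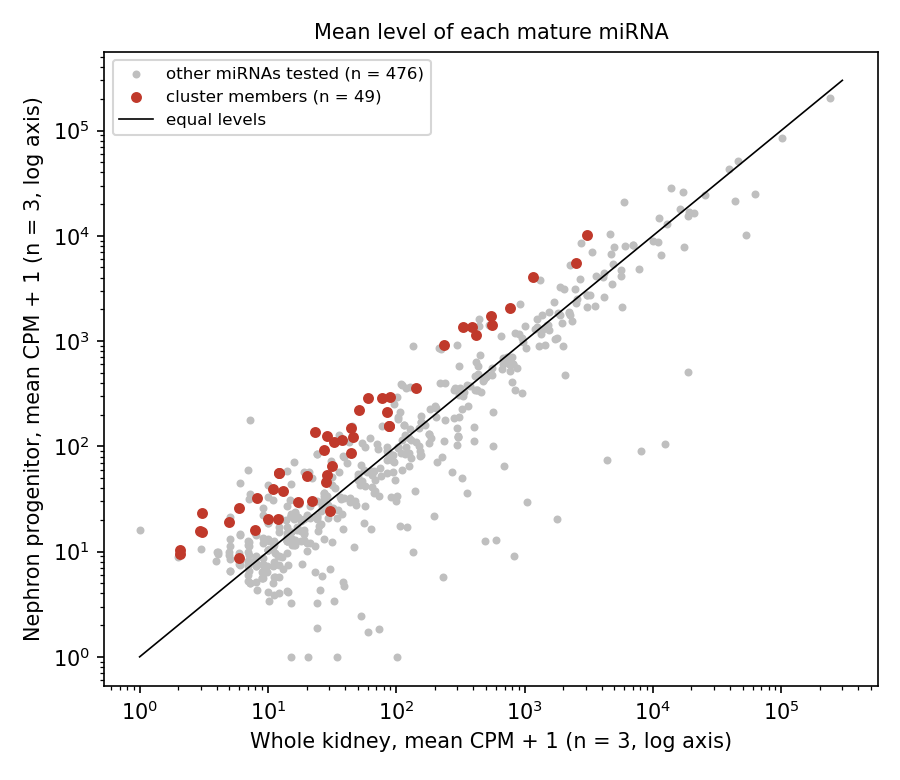
Mean level of each mature miRNA in whole kidney and in nephron progenitors (CPM + 1, n = 3 libraries each, log axes), with the 49 members in red, the other 476 miRNAs tested in grey and a line of equal levels. miR-379-5p is the uppermost red point, with means of 10244 CPM in progenitors and 3090 in whole kidney.

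miR-379-5p, from the first hairpin, was the most abundant member and ranked 27 among all miRNAs tested. It was at 6579, 11618 and 12535 CPM in MNP1, MNP2 and MNP6 and at 2923, 3183 and 3164 CPM in MWK1, MWK2 and MWK6. The groups did not overlap, and MNP1 lay between whole kidney and the other progenitor libraries. Its log2 fold change was 1.73 (standard error 0.22, edgeR adjusted p = 3.8e-05). miR-411-5p, from the neighbouring hairpin, was at 2469, 4814 and 4864 CPM in the progenitor libraries and 1055, 1219 and 1246 CPM in whole kidney. The libraries fell in the same way, with MNP1 the lowest of its group and no overlap. Its log2 fold change was 1.79 (standard error 0.24, edgeR adjusted p = 7.3e-05). The opposite arm, miR-411-3p, was at 554, 969 and 1204 CPM against 217, 246 and 245 CPM, and its log2 fold change was 1.95 (standard error 0.27).

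miR-541-5p, the second most abundant member, was at 3255, 5586 and 7731 CPM in MNP1, MNP2 and MNP6 and at 2291, 2525 and 2726 CPM in MWK1, MWK2 and MWK6. The groups did not overlap, although MNP1 was close to whole kidney. Its log2 fold change was 1.14 (standard error 0.25, edgeR adjusted p = 0.0029), the smallest among the 16 members whose mean reached 50 counts. miR-134-5p, known for its part in dendritic spine development through Limk1, was at 973, 1771 and 2502 CPM and at 517, 494 and 630 CPM, in the same order of libraries. Its groups did not overlap, and MNP1 was again the lowest of its group. The log2 fold change was 1.67 (standard error 0.29).

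miR-381-3p and miR-300-3p, near copies of each other, were alike in size of change. miR-381-3p was at 1147, 2366 and 2620 CPM in the progenitor libraries, beside 704, 882 and 733 CPM in the whole kidney ones, a log2 fold change equal to 1.40 (standard error 0.27). miR-300-3p was at 840, 1728 and 1724 CPM and at 481, 551 and 648 CPM, a log2 fold change equal to 1.35 (standard error 0.26). In both, MNP1 was the progenitor library nearest to whole kidney, and the groups did not overlap. miR-543-3p was at 761, 1189 and 2113 CPM and at 379, 368 and 426 CPM, a log2 fold change equal to 1.79 (standard error 0.31). miR-382-5p was at 803, 1325 and 1987 CPM and had a whole kidney mean of 330 ± 34.3 CPM (SD, n = 3), a log2 fold change equal to 2.05 (standard error 0.29). In these members MNP6 was the highest library and MNP1 the lowest of the progenitors, again above all of whole kidney. miR-409-3p, miR-382-3p and miR-369-5p complete the 12 most abundant members. Their log2 fold changes were 1.46 (standard error 0.33), 1.34 (standard error 0.28) and 1.73 (standard error 0.32), and all libraries of one group lay above those of the other. All 12 were higher past the threshold of the edgeR test, beside 26.1% of all miRNAs tested whose mean reached 50 counts. Nothing is read from this count, since the contrast was known when the members were picked.

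The mature sequences of the 12 most abundant members are shown because they carry 90.3% to 92.5% of cluster counts in every library. Sequences are from RefSeq (GRCm38.p6), which held 48 of the 51 names and 46 of the 49 members, and miR-376c-3p, miR-487b-3p and miR-485-5p are named only. They are written 5′ to 3′ with the seed, bases 2 to 8, in capitals.
miR-379-5p (chr12:109709065-109709085, plus strand): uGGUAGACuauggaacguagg
miR-541-5p (chr12:109742422-109742446, plus strand): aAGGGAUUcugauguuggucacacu
miR-411-5p (chr12:109710190-109710210, plus strand): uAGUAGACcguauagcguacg
miR-381-3p (chr12:109726870-109726891, plus strand): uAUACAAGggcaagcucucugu
miR-134-5p (chr12:109734145-109734166, plus strand): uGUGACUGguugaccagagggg
miR-300-3p (chr12:109724363-109724384, plus strand): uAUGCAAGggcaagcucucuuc
miR-543-3p (chr12:109717304-109717325, plus strand): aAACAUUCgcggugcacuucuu
miR-382-5p (chr12:109733781-109733802, plus strand): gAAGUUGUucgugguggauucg
miR-409-3p (chr12:109743204-109743225, plus strand): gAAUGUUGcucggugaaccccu
miR-411-3p (chr12:109710225-109710246, plus strand): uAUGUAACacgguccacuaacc
miR-382-3p (chr12:109733819-109733840, plus strand): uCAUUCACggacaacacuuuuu
miR-369-5p (chr12:109743431-109743452, plus strand): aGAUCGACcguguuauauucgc
Each of these 12 has its own seed. Among the 48 names with a sequence there were 46 distinct seeds, and 2 seeds were shared by a pair of names each. miR-379-3p has the seed of miR-411-3p, and miR-299a-3p that of miR-299b-3p.
miR-379-3p (chr12:109709102-109709123, plus strand): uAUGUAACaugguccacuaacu
miR-299a-3p (chr12:109710676-109710697, plus strand): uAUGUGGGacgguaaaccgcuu
miR-299b-3p (chr12:109710645-109710662, minus strand): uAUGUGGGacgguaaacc
Counted from the 5′ end, miR-379-3p and miR-411-3p differ at U10C and U22C over 22 aligned bases (the base of miR-379-3p first). Their counts were far apart, at 10, 9 and 16 in MNP1, MNP2 and MNP6 for miR-379-3p and 225, 445 and 458 for miR-411-3p. miR-300-3p and miR-381-3p differ at G4A, which lies in the seed, and at U21G and C22U (the base of miR-300-3p first). miR-376b-3p and miR-376a-3p differ at A4G, C13A and U20G (the base of miR-376b-3p first). Where sequences are this close, the counts of each depend on how reads were assigned between them.

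The names miR-299a and miR-299b hold the same counts in every library. miR-299b-3p is the first 18 bases of miR-299a-3p, and its hairpin lies on the opposite strand of the same place. Both 3p names were at 39, 87 and 67 counts in MNP1, MNP2 and MNP6 and at 22, 32 and 32 in MWK1, MWK2 and MWK6. The groups overlapped in CPM, since MNP1 lay within the range of whole kidney, and the log2 fold change was 0.83 (standard error 0.30, edgeR adjusted p = 0.047). With one library left out, this call was lost in 5 of 6 fits, and it was lost in 5 of 10 other alternatives with all libraries, DESeq2 and limma-voom among them. The 5p names held 16, 22 and 30 counts in the progenitor libraries and 2, 7 and 2 in whole kidney. miR-299b-5p is also listed for mir-299b itself, on a row with fewer counts that was not kept. Without the miR-299b names, an alternative chosen after the data were seen, 33 of 47 members were higher past the threshold. So were 100 miRNAs in all, and in the main fit the percent over all miRNAs tested was 19.4. Nothing is read from this count.

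Among the 12 most abundant members, shares within the cluster differed less between the groups than the share of the cluster in all counts. miR-379-5p took 32.6%, 32.1% and 28.6% of cluster counts in MNP1, MNP2 and MNP6, beside 28.5%, 28.0% and 26.1% in MWK1, MWK2 and MWK6. The groups did not overlap, but the lowest progenitor library and the highest whole kidney library were next to each other. miR-541-5p took 16.1%, 15.4% and 17.7% in the progenitor libraries and 22.4%, 22.2% and 22.5% in whole kidney. This was the widest gap in percentage points among the 12, at 16.4% ± 1.16 and 22.3% ± 0.141 (SD, n = 3 each), and it was picked out once the shares had been looked at. miR-382-5p went the other way, with 3.97%, 3.65% and 4.54% against 3.58%, 2.63% and 2.67%. miR-411-5p and miR-411-3p also took more in progenitors, at 12.2% ± 1.08 against 10.4% ± 0.245 and at 2.72% ± 0.0416 against 2.10% ± 0.0698. The shares of miR-381-3p, miR-134-5p, miR-300-3p, miR-543-3p, miR-409-3p, miR-382-3p and miR-369-5p overlapped between the groups. Among members with few counts the shares of some were further apart, at 0.0704% ± 0.00381 in progenitors and 0.267% ± 0.136 in whole kidney for miR-329-5p. For miR-410-3p they were 0.413% ± 0.0194 and 0.198% ± 0.0346, also without overlap. Over the 49 members, the Spearman correlation of levels was 0.961 to 0.974 between progenitor libraries, 0.914 to 0.951 between whole kidney libraries and 0.898 to 0.949 between the groups. These points share a library and its depth, and the values are a description.

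Arms were compared next, since each hairpin can give a 5p and a 3p product. Members named 5p took 73.5%, 73.4% and 71.8% of cluster counts in MNP1, MNP2 and MNP6, beside 73.1%, 72.0% and 70.7% in MWK1, MWK2 and MWK6. The groups overlapped, at 72.9% ± 0.921 and 71.9% ± 1.19 (SD, n = 3 each; exact two-sided permutation test, p = 0.3). The median log2 fold change was 1.76 over the 20 members named 5p and 1.43 over the 29 named 3p. Members at the floor in whole kidney entered both medians at their fitted values.

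In 6 hairpins both arms passed the filter and the more abundant arm had a mean of at least 50 counts. The 5p arm dominated in mir-379, at 99.7% ± 0.109 of both arms in nephron progenitors and 99.5% ± 0.273 in whole kidney, and in mir-411, at 81.7% ± 1.54 and 83.3% ± 0.293 (SD, n = 3 each). The 3p arm dominated in mir-409, where 5p made up 16.1% ± 3.34 and 16.6% ± 2.91. In mir-485 the arms were near balance, at 45.3% ± 6.72 and 47.4% ± 10.3, and in mir-369 the 5p share was 69.7% ± 10.8 and 67.1% ± 4.61. In mir-382 it was 77.4%, 76.1% and 82.3% in MNP1, MNP2 and MNP6, beside 72.6%, 73.1% and 64.9% in MWK1, MWK2 and MWK6. This was the 1 hairpin of 6 whose groups did not overlap, beside 34.9% of the 86 hairpins in the whole table that met the same conditions.

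**Figure D3:**
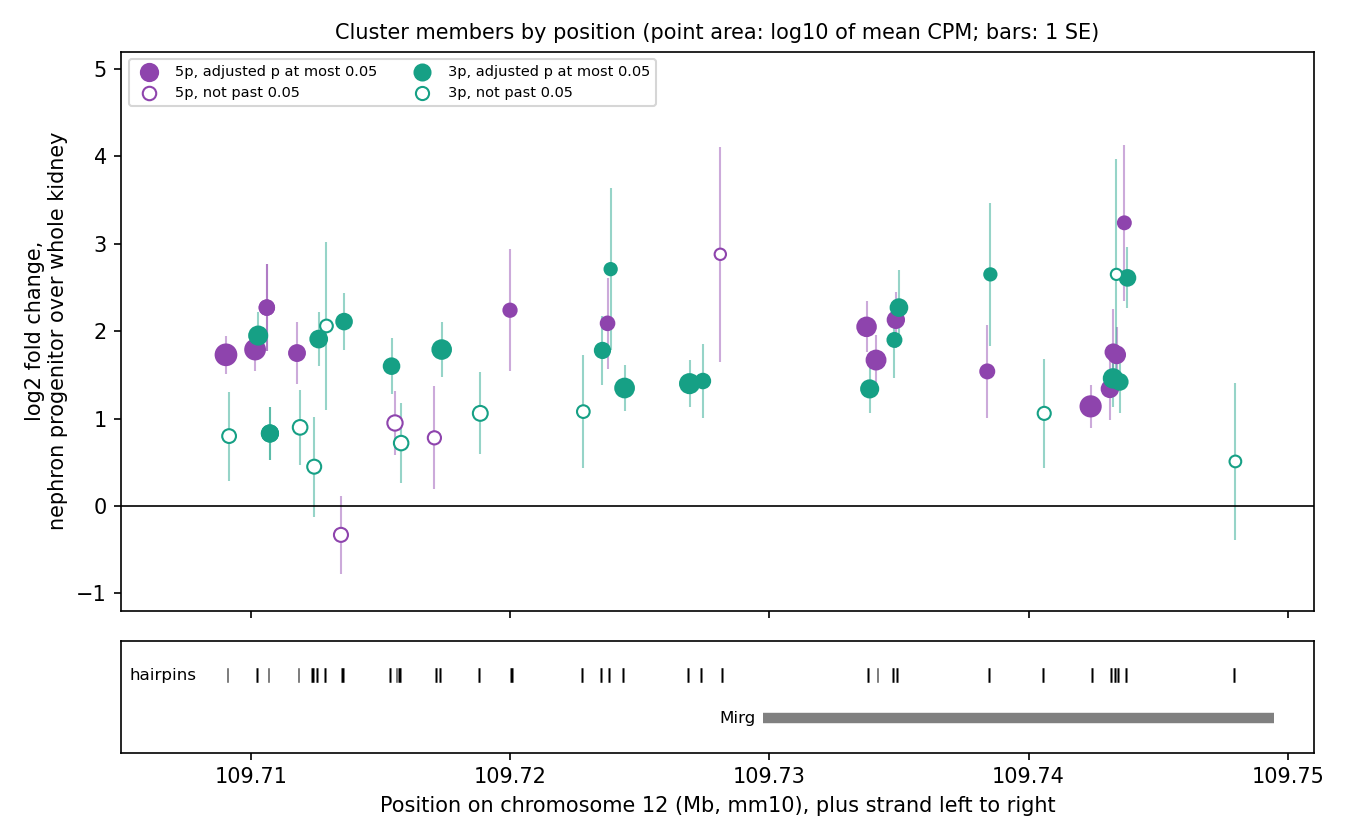
Log2 fold change of each of the 49 members (nephron progenitor over whole kidney, bars 1 standard error) against hairpin position on chromosome 12 in Mb, coloured by arm, filled where the adjusted p is at most 0.05, with point area rising with mean CPM. The lower strip shows the hairpins and Mirg; all points but miR-329-5p, at -0.33, lie above 0.

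Position was described by cutting the 34 plus-strand hairpins into runs of 12, 11 and 11. The run from mir-379 to mir-666 (109709060 to 109717183) gave 19 members with a median log2 fold change of 1.60, of which 11 were higher past the threshold. From mir-543 to mir-382 (109717258 to 109733846) there were 13 members with a median of 1.78, of which 10 were. From mir-134 to mir-3072 (109734139 to 109747960) there were 17 with a median of 1.73, of which 14 were. Over all miRNAs tested the percent higher past the threshold was 19.4, and nothing is read from the counts of these runs. With members at the floor in whole kidney computed against it, the medians of the runs were 1.00, 1.40 and 1.46. The runs hold 1, 4 and 4 such members, and in the first run miR-758-3p alone moved the median. No trend along the cluster is read from these medians. The 19 members inside Mirg and the 30 outside it had medians of 1.73 and 1.67, with members at the floor kept at their fitted values. At the ends, miR-379-3p of the first hairpin was at 24.6, 19.6 and 42.0 CPM in MNP1, MNP2 and MNP6, beside 6.01, 18.9 and 23.4 CPM in MWK1, MWK2 and MWK6. miR-3072-3p of the last hairpin was at 4.92, 2.18 and 15.8 CPM and at 6.01, 3.15 and 5.84 CPM. Both overlapped between the groups and were not past the threshold. The other arm of the first hairpin, miR-379-5p, did not overlap and was past it, with a log2 fold change of 1.73.

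Ordered by mean CPM, the upper run of 17 members, from 6667 to 120 CPM, had a median log2 fold change of 1.73. The middle run of 16, down to 26.4 CPM, had a median of 1.52. The lower run of 16, from 25.2 to 4.73 CPM, had a median of 1.98. It holds all 9 members at the floor in whole kidney, and with these computed against the floor its median was 0.79. All 16 members whose mean reached 50 counts were higher past the threshold, with log2 fold changes from 1.14 to 2.27, and 19 of the 33 with a lower mean were. Over all miRNAs tested, 26.1% of those whose mean reached 50 counts and 15.2% of those with a lower mean were higher past it, and nothing is read from these counts either.

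The 14 members not past the threshold were miR-329-5p, miR-1197-3p, miR-3072-3p, miR-1193-3p, miR-666-5p, miR-379-3p, miR-380-3p, miR-679-5p, miR-377-3p, miR-495-3p, miR-376c-3p, miR-758-3p, miR-412-3p and miR-539-5p. In all 14 the groups overlapped in CPM. miR-329-5p was at 14.8, 26.1 and 28.9 CPM in MNP1, MNP2 and MNP6 and at 30.1, 44.1 and 14.6 CPM in MWK1, MWK2 and MWK6, with a log2 fold change equal to -0.33 (standard error 0.45). Its opposite arm, miR-329-3p, was at 88.6, 133 and 147 CPM and at 24.1, 22 and 37.9 CPM, a log2 fold change equal to 2.11 (standard error 0.33), and its groups did not overlap. The other small changes were 0.45 (standard error 0.57) for miR-1197-3p, 0.51 (standard error 0.90) for miR-3072-3p, 0.72 (standard error 0.46) for miR-1193-3p and 0.78 (standard error 0.59) for miR-666-5p. At this depth the standard errors are wide, and a lack of change is not shown for these members.

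The 5 members with the largest fitted changes rest on few counts, and the intervals given for them pool the libraries of a group and cover counting error only. Their whole kidney counts alone would not have passed the filter, and they were picked by the size of the change. Nothing is therefore read from where these intervals lie. miR-410-5p held 27 counts over the progenitor libraries and 2 over whole kidney, a ratio per effective library size of 10.8 (exact 95% interval 2.70 to 93.4). miR-539-5p held 12 and 1 counts, a ratio of 9.56 (1.41 to 409), and miR-376a-3p 19 and 2, a ratio of 7.57 (1.83 to 67.0). miR-412-3p held 10 and 1 counts, a ratio of 7.97 (1.13 to 346), and miR-154-3p 18 and 2, a ratio of 7.17 (1.72 to 63.7). For miR-539-5p and miR-412-3p the groups overlapped in CPM and the edgeR adjusted p was 0.09 and 0.15. The other calls were lost in some fits that left out a library, in 2 of 6 for miR-410-5p, 3 of 6 for miR-154-3p and 3 of 5 for miR-376a-3p. With DESeq2 the call was lost for miR-154-3p and miR-376a-3p, and with limma-voom for miR-376a-3p. Among members above the floor in whole kidney the largest log2 fold change was 2.61, that of miR-410-3p (standard error 0.35). miR-410-3p was at 86.2, 152 and 171 CPM in MNP1, MNP2 and MNP6 and at 24.1, 18.9 and 23.4 CPM in MWK1, MWK2 and MWK6, with no overlap.

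At the edge of the filter, miR-412-3p (sum 11), miR-539-5p (sum 13) and miR-3072-3p (sum 14) were just inside. miR-376b-5p held 3, 2 and 1 counts in MNP1, MNP2 and MNP6, beside 1, 2 and 1 in MWK1, MWK2 and MWK6, a sum of 10 that left it out. miR-300-5p held 1, 3 and 2 counts and 2, 2 and 0, also a sum of 10. Neither separated the groups. A member with few counts can pass a sum over libraries through the group where it is high.

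Markers of other cell types are given beside these values, as summed CPM. The 5 epithelial miRNAs, led by miR-200a-3p, were at 214, 366 and 86.7 CPM in MNP1, MNP2 and MNP6 and at 23365, 24832 and 21253 CPM in MWK1, MWK2 and MWK6, with 5 of 5 lower past the threshold and miR-141-3p at 0 in the progenitor libraries. The 2 endothelial ones, led by miR-126a-3p, were at 419, 595 and 578 CPM against 20132, 21311 and 18150 CPM, both lower. The 3 erythroid ones, led by miR-451a, were at 372, 266 and 171 CPM against 1431, 1414 and 741 CPM, with 3 of 3 lower. Each of these sums was lower in every progenitor library than in any whole kidney library.

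The 5 markers of stroma and smooth muscle, led by miR-143-3p, were at 33782, 45277 and 46056 CPM in the progenitor libraries and 73673, 85327 and 70886 CPM in whole kidney, with 2 lower past the threshold and none higher. The sum was carried by miR-143-3p, at 21270, 28093 and 25624 CPM against 60316, 71006 and 57048 CPM, and the median log2 fold change of the 5 was 0.17. miR-145a-5p was at 98.5, 135 and 99.9 CPM against 352, 498 and 368 CPM. The other 3 were not past the threshold. miR-199a-5p was at 5389, 7927 and 10535 CPM against 5909, 5882 and 6299 CPM, miR-199a-3p at 6692, 8664 and 9192 CPM against 6775, 7466 and 6734 CPM, and miR-214-3p at 332, 457 and 604 CPM against 322, 475 and 438 CPM. Outside this list, miR-199b-5p was higher past the threshold, at 2900, 3475 and 3479 CPM against 1861, 2062 and 1778 CPM. miR-199b-3p, miR-214-5p, miR-143-5p and miR-145a-3p, also outside it, were not past the threshold. Of 3 skeletal muscle markers, led by miR-206-3p, 1 was higher, and the sums were 300, 438 and 131 CPM against 66.2, 113 and 61.3 CPM. The 4 leukocyte markers, led by miR-142a-3p, were at 126, 135 and 52.6 CPM against 87.2, 101 and 61.3 CPM, with none past the threshold. The list holds only the 3p arm of miR-223. The other arm, miR-223-5p, was higher past the threshold, at 9.85, 17.4 and 18.4 CPM against 0 in every whole kidney library. Of 5 neural markers, 3 were in the table, led by miR-9-5p, at 1418, 1464 and 1571 CPM against 5659, 6310 and 5642 CPM, with 2 lower. Most of the progenitor sum was miR-128-3p, at 1354, 1375 and 1503 CPM against 1449, 1436 and 1585 CPM, while miR-9-5p was at 64, 89.3 and 65.7 CPM against 4201, 4840 and 4031 CPM. The study reported some renal stroma in the progenitor isolate by qPCR of Pdgfrb, although CD140a marks stromal cells. The part of these cell types in the level of the cluster was not tested.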

How the data were processed

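The authors trimmed reads with BBDuk, aligned them to mm10 with Bowtie2 2.2.3 and counted miRBase miRNAs with miRDeep2, and deposited expected counts per mature miRNA and precursor, without normalization. For each mature miRNA, the row with the most counts in a library gave its value there, rounded to whole numbers (3 of 792 rows hold fractions); the test had been planned for counts. Mature miRNAs with a sum over 10 were scaled by TMM and tested with edgeR 4.0.16 (quasi-likelihood, Benjamini-Hochberg over 525) in R 4.3.3. DESeq2 1.42.0 and limma 3.58.1 were alternatives, as were other scalings, filters, row choices and leaving out libraries. Standard errors are the log2 fold change over the square root of F. The steps were tested on simulated data. At this depth 3 counts, the floor, are 6.54 to 9.45 CPM. Exact permutation tests of 3 against 3 libraries cannot go below 0.1. One had been planned for the summed share and is not given, since the cluster was picked with that difference known.

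The columns MNP6 and MWK6 match no single sample name, so they carry a group and no replicate number. Named members follow a rule: the 12 most abundant, the 5 largest and 5 smallest changes, those not past the threshold, both arms of well-counted hairpins, the ends, the edge of the filter and names sharing counts. The members, this rule and the lists were chosen with earlier results of these data known. miR-329-3p, the composition of the cluster and single marker miRNAs were singled out after values were seen.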

Additional observations from a re-analysis of the deposited data

How the results depend on the processing

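Of 102 miRNAs higher past the threshold, 19.4% of those tested, 35 were members. These numbers were 86 and 30 with DESeq2, 92 and 30 with limma-voom, 121 and 36 with library totals, 109 and 35 with TMM factors from miRNAs outside the cluster, and 100 and 33 with no filter. Other scalings, row choices and leaving out the 10 most abundant miRNAs gave 92 to 103 and 32 to 35. More than 10 counts in every library left 19 members, and all 19 were among the 66 miRNAs higher past the threshold. Only names counted in all libraries stay in that fit, and nothing is read from any of these numbers. With one library left out the numbers were 75 to 109 and 27 to 41. Of the 35 members, 24 were past the threshold in each of the fits that left out a library. Library totals moved the median of all miRNAs to 0.19, and TMM factors from miRNAs outside the cluster to 0.09, with member medians of 1.94 and 1.84. The median of the members was 1.28 without MNP6 and 1.95 without MNP1.

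Both groups carry the numbers 1 and 2, and the sources do not say that equal numbers share a litter. MNP6 and MWK6 also share a number, but it matches no sample name, and they were not paired. Differences between the numbers 1 and 2 in the 2 groups had a correlation of 0.0394 over the 525 miRNAs, which are not independent. In the 4 numbered libraries the replicate block gave 24 members of 45 among 71 miRNAs higher past the threshold, with a median of 1.51, and the fit without the block gave 16 among 58, with a median of 1.53. The mean of the within-number differences (replicate block) was 1.96 percentage points for the share of the cluster, -0.0662 for the ratio to the miRNAs nearer Dlk1 and 0.864 points for the 5p share. For the ratio the differences had opposite signs, 0.08 for number 1 and -0.212 for number 2.

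The difference in cluster share, 2.58 points, was 5.43 without the 10 most abundant miRNAs, since the total is then smaller. It also moved with the choice of rows, to 2.19 points with precursor rows summed and 3.1 points with miRNAs on a single row only. With one library left out it was 1.90 to 3.35 points, the ratio differed by -0.0694 to 0.013, the last without MNP2, and the 5p share by 0.333 to 1.53 points. Leaving out a library gave -0.15 (without MNP6) to 0.91 (without MWK6) for miR-1197-3p, and -0.65 (without MWK6) to 0.05 (without MWK2) for miR-329-5p, so both changed sign. The cause was not tested. Depth limits the members with few counts.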
